A study of Mus musculus with 7 samples.

Results

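Aminoacyl tRNA synthetases join each amino acid to its transfer RNA, the charging step that every round of protein synthesis needs. The genes described here are 37 by symbol, of which 19 encode synthetases of the cytoplasm, 16 encode synthetases of mitochondria and 2, Aimp1 and Aimp2, encode scaffold proteins. Probes were taken where the platform annotation gives one of these symbols, with an older symbol that lacks the final 1 (Lars for Lars1) read as the same gene. Of the 37 genes, 35 had a probe and 32 lay above the detection limit, among 10087 genes tested of 16565 named on the array. Cars2 and Tars2 were not analysed here, and Cars1, Hars2 and Yars2 read below the limit in both groups.

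All measurements came from palatal shelves, the paired outgrowths that form the roof of the mouth, dissected from C57BL/6-labelled mouse embryos at E13.75. The 3 wild-type embryos served as controls for 4 embryos of the genotype Adamts9+/-:bt/bt, called mutant below, which have lost 1 copy of Adamts9 and are homozygous for bt, the belted allele of Adamts20. Both genes encode secreted metalloproteases that cleave versican, and the series asks how that cleavage bears on palate closure and on proliferation of palatal mesenchyme. Each embryo gave 1 sample on 1 Illumina array, whole shelves were used, and the labels do not say whether wild-type and mutant embryos shared litters or a parental colony. In such bulk tissue, fewer cells of a type and less RNA per cell cannot be told apart.

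Each synthetase first activates its amino acid with ATP and then transfers it to the tRNA. The enzymes fall into a class I and a class II by the fold of their catalytic site. In animal cells several cytoplasmic synthetases sit together in a multi-synthetase complex held by the AIMP scaffolds, and the nucleus also encodes a separate set of synthetases for the ribosomes inside mitochondria. Gars1 and Kars1 each encode both a cytoplasmic and a mitochondrial form. Many cytoplasmic synthetase genes are known targets of ATF4, the transcription factor of the amino acid response.

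Values below are normalized probe intensities on the log2 scale, differences are mutant minus wild type, and the detection limit was 6.10. A call means an adjusted p under 0.05 from limma over all detected features. The number of arrays limits the precision. For a single gene the exact two-sided permutation test has 35 splits of 7 arrays, and 0.0286 is the smallest p it can give. Levels of different genes are not compared, since probes differ in brightness.

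Some features of the whole experiment bear on every value. Mutant and wild-type arrays differed in 36.9% of genes, with 17.1% higher and 19.8% lower in the mutants, so a difference in a given gene was common. Arrays correlated at 0.993 to 0.994 within the mutants, 0.982 to 0.993 within the wild types and 0.948 to 0.977 between the groups. On the leading principal component wild-type replicate 3 (-13.0) was nearer to the mutants (14.9 to 20.3) than were wild-type replicates 1 and 2 (-24.4 and -30.8). Xist, an RNA of female cells, read 8.49 in wild-type replicate 3 but 6.13 and 6.14 in wild-type replicates 1 and 2. It read 8.19 and 7.94 in mutant replicates 1 and 3 and 6.13 and 6.04 in mutant replicates 2 and 4. Fits against wild-type replicate 3 alone thus use the only wild-type array with high Xist. The part of embryo sex in the differences was not tested. Adamts9 was not analysed here and Adamts20 read below the limit in every array (5.93 to 6.06), so neither targeted gene checked the genotypes. Mesenchyme markers were all detected (10 of 10), with 4 lower in the mutants and a list mean of 8.84 to 9.01 there against 9.28 to 9.51 in wild type. Of 18 detected neuron markers 15 were higher in the mutants, with a list mean of 8.79 to 9.16 against 6.78 to 7.63, while Snap25 and Nefl lay below the limit. Of 9 endothelial markers 5 were lower, with a list mean of 7.72 to 7.94 against 8.16 to 8.39. Red cell markers had 3 of 7 lower (list mean 9.87 to 10.05 against 10.11 to 10.44), muscle markers 1 of 8 higher (9.09 to 9.67 against 7.91 to 9.22), epithelial markers 2 of 9 higher and 1 lower (8.54 to 8.74 against 8.51 to 8.82) and leukocyte markers 1 of 7 higher (7.20 to 7.37 against 7.16 to 7.19). The part of these markers in the differences of the synthetase genes was not tested.

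Among the 32 tested genes 11 were lower in the mutant shelves, 2 were higher and 19 did not pass, with each gene read by its brightest feature. Mars1, counted as higher, has a dimmer feature that passed as lower, so its direction as a gene is not settled. The share called was 40.6%, close to the 36.9% of all genes, so synthetase genes were not called more often to an extent that these counts can show. The share called lower was 34.4% beside 19.8% of all genes. The called genes changed by 1.13-fold to 1.62-fold, and 0 of the 32 genes reached a 2-fold difference. Over all genes tested 2.91% had such a difference, and 292 genes had it and passed the test. With so low a share, 0 of 32 is not a result about the synthetase genes. Lars1 did reach 2-fold under median centring (-1.01). The groups were fully separate in 16 of the 32 genes (12 of them lower), beside 42.8% of all genes (22.9% lower). The authors' own log2 value table gave the same counts, 11 lower and 2 higher, beside 36.7% of all genes called. Under median centring of the arrays, used instead of quantile normalization, 15 were lower and 0 higher by limma, beside 42.7% of all genes called (35.7% lower and 7.04% higher).

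**Figure D1:**
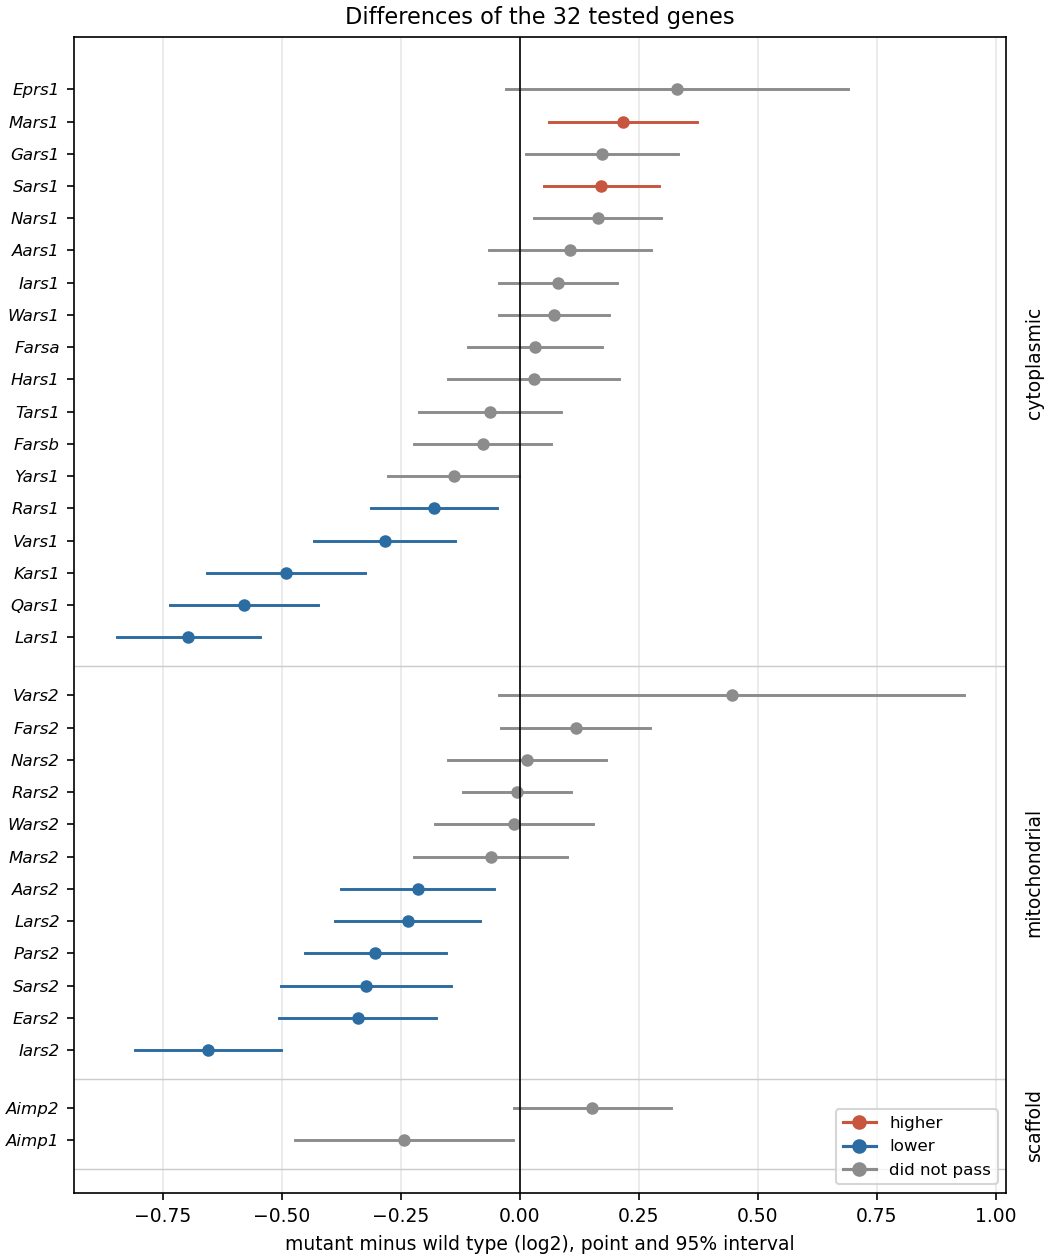
Log2 differences (mutant minus wild type, x axis) of the 32 tested genes with 95% intervals from limma, grouped by compartment, with called genes in colour. The lower calls reach -0.70 for Lars1 and -0.66 for Iars2, and 11 of 18 cytoplasmic and 6 of 12 mitochondrial genes did not pass.

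The cytoplasmic set was mixed. Of 18 tested genes 5 fell (Lars1, Qars1, Kars1, Vars1 and Rars1), Sars1 and the brighter feature of Mars1 passed as higher, and 11 did not pass. That is 27.8% lower and 11.1% higher, beside 19.8% and 17.1% of all genes. The median log2 difference was 0.03, beside -0.0020 over all genes tested, and its sign turned under median centring (-0.17) and against wild-type replicate 3 alone (-0.0576). The mean over the 18 genes was instead lower in every mutant array (8.47 to 8.53) than in the wild-type arrays (8.556 to 8.562).

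Lars1, which charges leucine and is also known as a leucine sensor for mTORC1, fell by 0.70 on the log2 scale (SE 0.07, 1.62-fold lower, adjusted p = 0.000139). Wild-type replicates 1 to 3 read 9.01, 8.94 and 8.96, while mutant replicates 1 to 4 read 8.17, 8.38, 8.32 and 8.21. The groups lay well apart, with a wild-type spread (SD 0.04, n = 3) much smaller than the gap, and wild-type replicate 3 sat with the other wild types. Qars1, the glutamine enzyme, read 10.88, 10.93 and 10.70 in wild type and 10.31, 10.27, 10.24 and 10.21 in the mutants. Its difference was -0.58 (SE 0.07, adjusted p = 0.000341), and the lowest wild-type value, from replicate 3, was above every mutant value. Kars1, which charges lysine in cytoplasm and mitochondria, fell from 9.89, 9.92 and 9.68 to 9.26, 9.34, 9.38 and 9.38 (-0.49, SE 0.07, adjusted p = 0.00109). There too wild-type replicate 3 was the lowest of its group and the groups did not overlap. The calls of Lars1, Qars1 and Kars1 were kept without any single array and also when the mutants were set against wild-type replicate 3 alone.

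The other falls were smaller. Vars1, the valine enzyme, which binds elongation factor 1, read 8.59, 8.75 and 8.53 in wild type and 8.33, 8.39, 8.31 and 8.32 in the mutants (-0.28, SE 0.07, adjusted p = 0.00913). All 4 mutant values lay close together below the wild-type range. Against wild-type replicate 3 alone the Vars1 difference was -0.19 and did not pass (adjusted p = 0.164). Rars1, the arginine enzyme, read 9.49, 9.34 and 9.49 against 9.23, 9.27, 9.29 and 9.25 (-0.18, SE 0.06, adjusted p = 0.0388). Among fits that omit 1 array, it passed only without wild-type replicate 2, the lowest wild-type array for this gene. Leaving out any of the other 6 arrays gave differences of -0.19 to -0.15 with adjusted p between 0.0654 and 0.133.

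Sars1, which charges serine and also the selenocysteine tRNA, had 2 distinct features on the array, and both were higher in the mutants. The brighter one read 8.13, 8.14 and 8.06 in wild type and 8.31, 8.27, 8.23 and 8.31 in the mutants (0.17, SE 0.05, adjusted p = 0.0338). The dimmer one, closer to the detection limit, read 6.53, 6.32 and 6.46 in wild type and 6.89, 6.91, 6.98 and 6.89 in the mutants (0.48, SE 0.07, adjusted p = 0.000664). The groups did not overlap in either feature, and the dimmer feature showed the larger difference. Median centring put the median difference of all tested features at -0.14. Under that centring the brighter feature reversed to -0.13 (adjusted p = 0.276) and the dimmer one remained higher at 0.40 (adjusted p = 0.00306). With 1 array omitted, the brighter feature passed only without mutant replicate 3, and leaving out any of the other 6 arrays gave 0.15 to 0.19 with adjusted p between 0.0622 and 0.0842. The dimmer feature passed without each array in turn (0.42 to 0.53).

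Mars1, the methionine enzyme that also charges the initiator tRNA, had 2 features that moved in opposite directions. Its brighter feature read 8.98, 8.78 and 8.89 in wild type and 9.10, 9.20, 9.04 and 9.05 in the mutants (0.22, SE 0.07, adjusted p = 0.0356). Its dimmer feature read 7.63, 7.75 and 7.54 in wild type and 7.21, 7.53, 7.24 and 7.44 in the mutants (-0.29, SE 0.09, adjusted p = 0.0388). The groups did not overlap in either feature, although mutant replicate 2 and wild-type replicate 3 of the dimmer one nearly met, and where these probes lie on the transcript was not analysed here. No direction for Mars1 as a gene can therefore be stated. With median centring the brighter feature reversed to -0.10 (adjusted p = 0.459) and the dimmer one stood at -0.53 (adjusted p = 0.0029). With 1 array omitted, the brighter feature passed only without wild-type replicate 1, with adjusted p between 0.0513 and 0.132 (0.17 to 0.23) without any other array. The dimmer one was lost without wild-type replicates 1 (-0.29, adjusted p = 0.0941) and 2 (-0.23, 0.133) and without mutant replicates 1 (-0.24, 0.0877), 3 (-0.25, 0.0981) and 4 (-0.31, 0.0513).

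**Figure D2:**
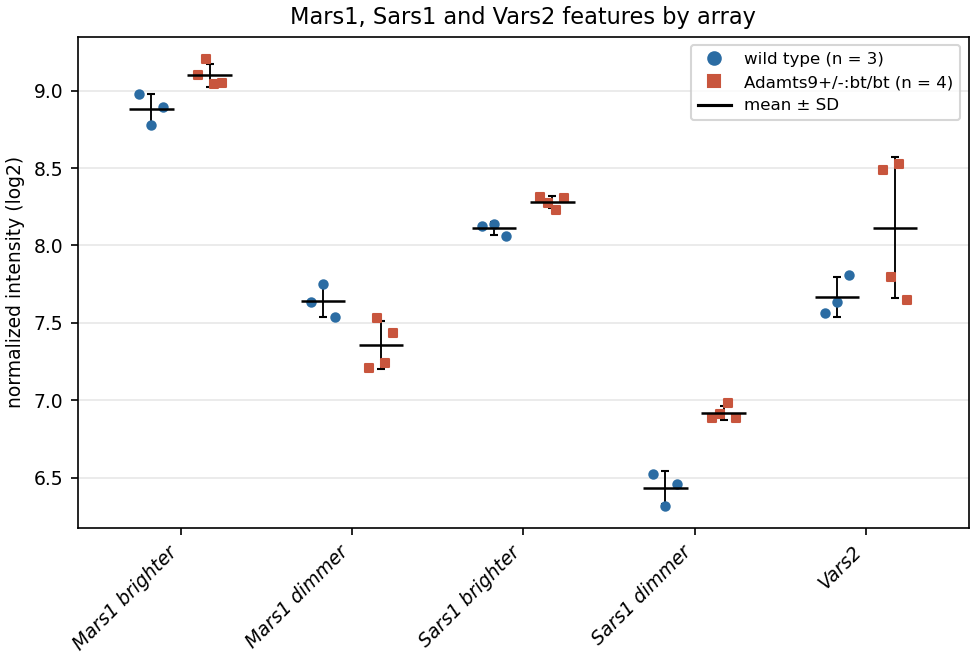
Normalized log2 intensity (y axis) of the 2 features of Mars1, the 2 features of Sars1 and the single feature of Vars2 in each of 3 wild-type and 4 mutant arrays, with mean ± SD. The Mars1 features move in opposite directions, both Sars1 features are higher in the mutants, and Vars2 splits the mutant arrays into 8.49 and 8.52 against 7.80 and 7.65.

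The 11 cytoplasmic genes that did not pass had differences from -0.14 (Yars1) to 0.33 (Eprs1), with SE of 0.05 to 0.16. Nars1, the asparagine enzyme, came closest, at 8.02, 8.11 and 7.97 in wild type and 8.24, 8.17, 8.24 and 8.15 in the mutants (0.16, 95% interval 0.03 to 0.30, adjusted p = 0.0569), with groups that did not overlap. Gars1, the glycine enzyme of both compartments, read 12.11, 12.05 and 12.16 against 12.28, 12.35, 12.37 and 12.13 (0.17, adjusted p = 0.0859), and the lowest mutant array, replicate 4, fell inside the wild-type range. Without that array the Gars1 difference was 0.22 and passed (adjusted p = 0.0281). Median centring reversed both genes, Nars1 to -0.14 (adjusted p = 0.286) and Gars1 to -0.04 (adjusted p = 0.758). For Farsa, Farsb, Hars1, Iars1, Tars1, Wars1 and Aars1 the differences lay between -0.08 and 0.11 with adjusted p of 0.293 or more, and their 95% intervals ran no lower than -0.22 and no higher than 0.27. These bounds too depend on the normalization. With median centring Farsb (-0.35, adjusted p = 0.017) and Wars1 (-0.20, adjusted p = 0.0411) passed as lower. Iars1 (-0.21) and Aars1 (-0.18) reversed there without passing. Yars1, the tyrosine enzyme, was dim and stood at 6.26, 6.33 and 6.19 in wild type and 6.16, 6.03, 6.14 and 6.16 in the mutants (-0.14, SE 0.06, adjusted p = 0.107).

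Eprs1, a single protein that charges both glutamate and proline, varied widely among the wild types. Wild-type replicates 1 to 3 read 7.21, 7.01 and 7.79, while the mutants read 7.68, 7.58, 7.74 and 7.67, so wild-type replicate 3 lay above all mutant values while the other wild types lay below them. The difference was 0.33 (95% interval -0.03 to 0.69, adjusted p = 0.137). Without wild-type replicate 3 it was 0.56 and passed (adjusted p = 0.000605), and against that array alone it was -0.12 (adjusted p = 0.417). It was 0.17 without wild-type replicate 2 (adjusted p = 0.431) and 0.11 under median centring (adjusted p = 0.61).

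**Figure D3:**
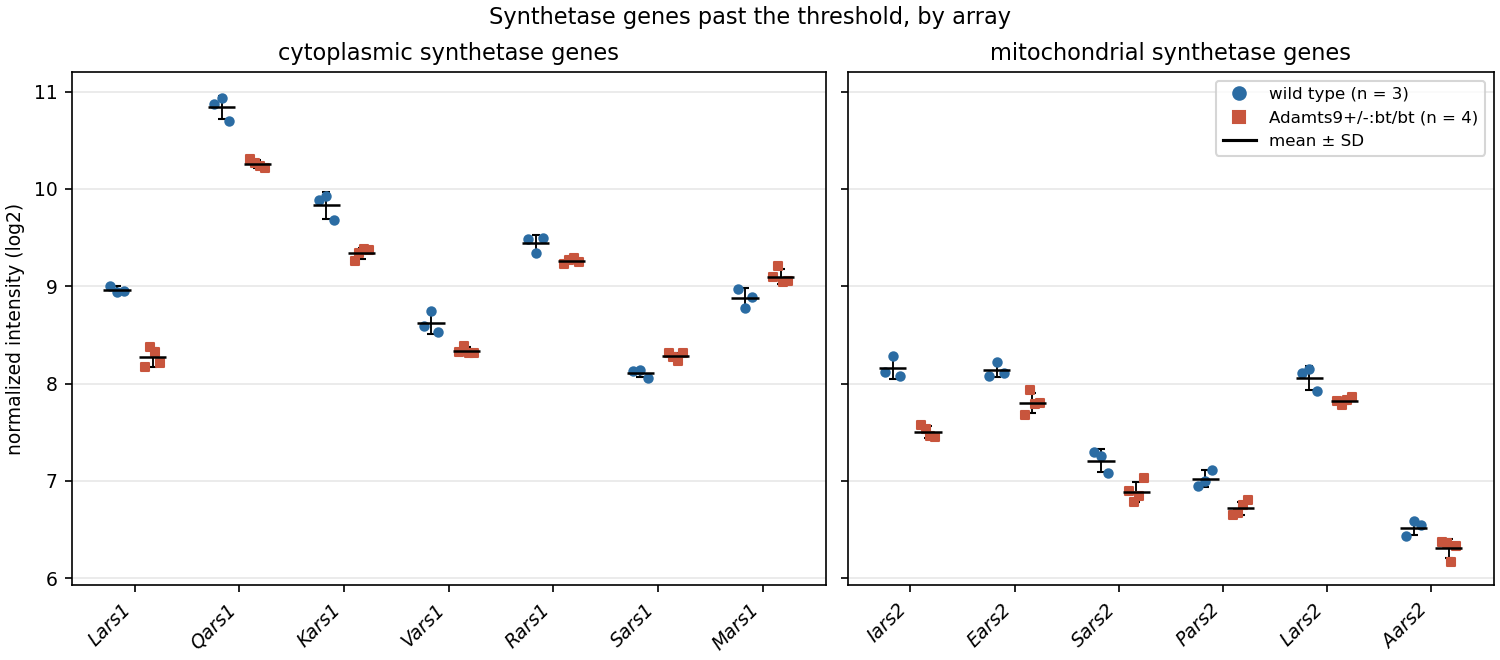
Normalized log2 intensity (y axis) of the 7 cytoplasmic and 6 mitochondrial genes past the threshold in each of 3 wild-type (circles) and 4 mutant arrays (squares), with mean ± SD. The widest gaps are in Lars1, Qars1, Kars1 and Iars2, and wild-type replicate 3 is the wild-type array nearest to the mutants in Qars1, Kars1, Vars1, Iars2, Sars2 and Lars2.

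The mitochondrial set moved in 1 direction where it passed. Of 12 tested genes 6 fell (Iars2, Ears2, Sars2, Pars2, Lars2 and Aars2), 0 rose by limma and 6 did not pass, and no further gene of the set had an unadjusted p under 0.05. The share lower was 50%, beside 19.8% of all genes, and the median log2 difference was -0.14, beside -0.0020 over all genes. This share was not tested against other gene sets, and it rests on small numbers: against wild-type replicate 3 alone 2 of the 12 passed as lower, beside 9.32% of all genes lower and 16.4% called in either direction.

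Iars2, the mitochondrial isoleucine enzyme, showed the widest gap of the set. It read 8.12, 8.28 and 8.08 in wild type and 7.57, 7.53, 7.46 and 7.45 in the mutants (-0.66, SE 0.07, 1.57-fold lower, adjusted p = 0.000192), and every mutant array lay well below the lowest wild type. Ears2 charges glutamate, including onto the mitochondrial glutamine tRNA. It read 8.08, 8.22 and 8.11 against 7.67, 7.93, 7.79 and 7.80 (-0.34, SE 0.07, adjusted p = 0.00645), without overlap. Pars2, the proline enzyme, read 6.95, 7.002 and 7.12 in wild type and 6.65, 6.67, 6.75 and 6.80 in the mutants (-0.30, SE 0.07, adjusted p = 0.00663), and there wild-type replicate 3 was the highest array. The calls of Iars2 and Pars2 were kept against wild-type replicate 3 alone, while Ears2 then stood at -0.31 (adjusted p = 0.0901).

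Sars2, the mitochondrial serine enzyme, read 7.30, 7.25 and 7.08 in wild type and 6.90, 6.79, 6.84 and 7.03 in the mutants (-0.32, SE 0.08, adjusted p = 0.0121). Wild-type replicate 3 and mutant replicate 4 nearly met, and omission of wild-type replicate 1 ended the call (-0.28, adjusted p = 0.0537). Against wild-type replicate 3 alone Sars2 stood at -0.19 (adjusted p = 0.274).

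Lars2, the leucine enzyme, read 8.11, 8.15 and 7.92 against 7.82, 7.78, 7.84 and 7.86 (-0.23, SE 0.07, adjusted p = 0.0237), with wild-type replicate 3 only just above the mutants. The call failed on omission of wild-type replicate 1 (-0.21, adjusted p = 0.0891) or 2 (-0.19, 0.0897) and without mutant replicate 2 (-0.22, 0.0575) or 3 (-0.24, 0.0512). Against wild-type replicate 3 alone it stood at -0.10 (adjusted p = 0.493). Aars2, the alanine enzyme, was dim, at 6.43, 6.59 and 6.55 in wild type and 6.37, 6.36, 6.17 and 6.33 in the mutants (-0.21, SE 0.07, adjusted p = 0.0417). With 1 array omitted it passed only without wild-type replicate 1, and without any of the other 6 arrays the difference was -0.24 to -0.17 with adjusted p between 0.0501 and 0.137.

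Among the 6 mitochondrial genes that did not pass, Rars2, Wars2, Nars2, Mars2 and Fars2 differed by -0.06 to 0.12, with intervals inside -0.22 to 0.27. These bounds hold for the main fit only. With median centring Rars2 passed as lower (-0.30, adjusted p = 0.0127) and Fars2 reversed to -0.19 (adjusted p = 0.186). Vars2, the valine enzyme, varied most within the mutants. It read 7.56, 7.64 and 7.81 in wild type, and 8.49, 7.80, 8.52 and 7.65 in mutant replicates 1 to 4, so replicates 1 and 3 lay above all wild types while replicates 2 and 4 lay within the wild-type range. The difference was 0.44 with a wide interval (-0.04 to 0.93, adjusted p = 0.14). Without mutant replicate 4 it was 0.60 and passed (adjusted p = 0.046). Xist, the RNA of the inactive X chromosome in female cells, read 8.19 and 7.94 in mutant replicates 1 and 3, 8.49 in wild-type replicate 3, which had the highest Vars2 of the wild types, and 6.04 to 6.14 in the other 4 arrays. Its part in the Vars2 values was not tested.

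Cytoplasmic and mitochondrial enzymes of the same amino acid could be set side by side for 10 amino acids, in 11 pairs because cytoplasmic phenylalanyl synthetase has separate alpha (Farsa) and beta (Farsb) subunits. The differences of the pair members were not tested against each other, and the log2 ratio within an array is given only for its shift between the groups, since its level depends on the probes. Leucine was the only amino acid for which both genes fell, Lars1 by more than Lars2 (-0.70 and -0.23). For isoleucine the fall lay in Iars2 alone, with Iars1 at 0.08, and the log2 ratio of Iars1 to Iars2 was -0.21 to 0.03 in wild type and 0.57 to 0.78 in the mutants. For serine the cytoplasmic gene passed as higher and the mitochondrial one as lower, with a ratio of 0.83 to 0.98 in wild type and 1.28 to 1.49 in the mutants. Arginine ran the other way, as Rars1 fell and Rars2 stood at -0.01 (ratio 1.13 to 1.27 in wild type and 1.01 to 1.08 in the mutants). Valine had the fall in Vars1 beside the split values of Vars2. For alanine the fall lay in Aars2, with Aars1 at 0.11, and for methionine Mars2 stood at -0.06. For asparagine, phenylalanine and tryptophan neither compartment passed. The ratio of cytoplasmic to mitochondrial gene had separate ranges in the groups in 8 of the 11 pairs, higher in the mutants in 4 and lower in 4. Among them was Farsb to Fars2 (1.47 to 1.71 in wild type and 1.35 to 1.46 in the mutants), although neither gene passed. How often ratios of other gene pairs separate was not analysed here. Several of the calls in these pairs depend on single arrays. Of the fits that omit 1 array, 6 lost the call of Rars1, of Aars2 and of the brighter Sars1 feature. The call of Lars2 was lost in 4 and that of Sars2 in 1, and median centring reversed the brighter Sars1 feature.

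**Figure D4:**
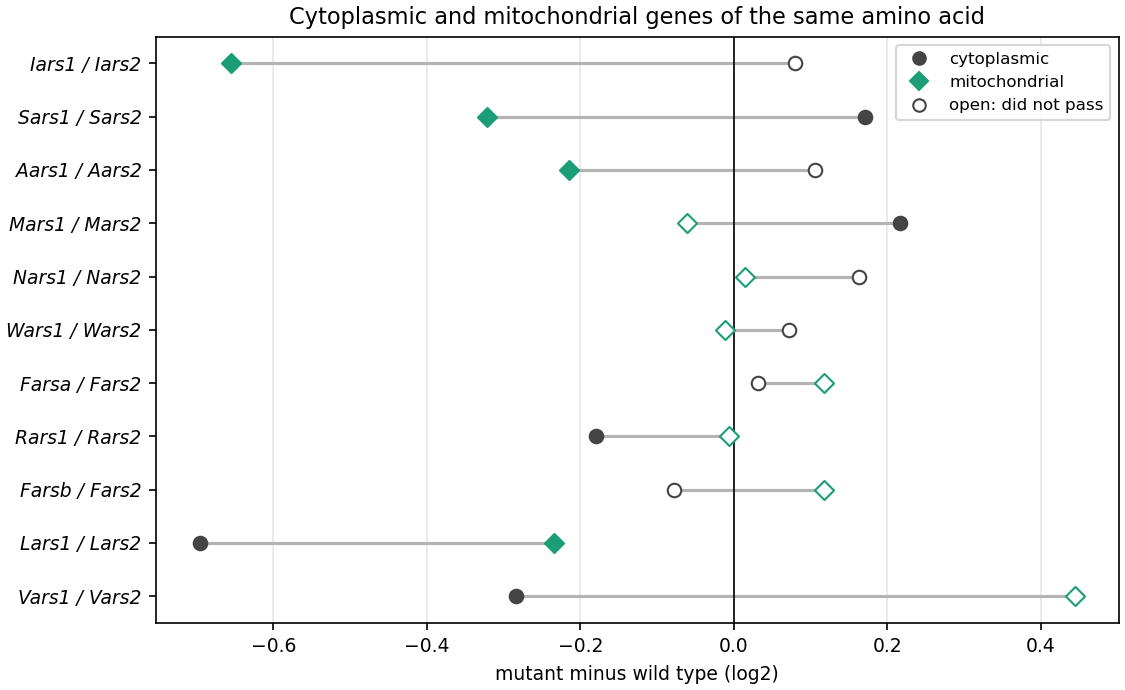
Log2 differences (mutant minus wild type, x axis) of cytoplasmic (circles) and mitochondrial (diamonds) synthetase genes of the same amino acid in 11 pairs, with open symbols where the gene did not pass. The pair of isoleucine spans -0.66 to 0.08 and that of valine -0.28 to 0.44.

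Genes of the multi-synthetase complex took most of the cytoplasmic falls. Of 7 tested synthetases of the complex in this set, Lars1, Qars1, Kars1 and Rars1 fell, the brighter Mars1 feature passed as higher, and Eprs1 and Iars1 did not pass, with a median difference of -0.18. Of the 11 cytoplasmic synthetases outside the complex 1 fell (Vars1), Sars1 passed as higher and 9 did not pass, with a median of 0.03. These counts are small, all genes gave 19.8% lower, and the difference between both groups of genes was not tested. The mean over the 7 complex synthetases was 9.0005 to 9.09 in the wild-type arrays and 8.84 to 8.89 in the mutants, and over the 11 others 8.22 to 8.27 and 8.24 to 8.29. Neither scaffold gene passed. Aimp1 read 10.50, 10.07 and 10.15 in wild type and 9.95, 9.97, 10.09 and 9.97 in the mutants (-0.24, adjusted p = 0.0901), with wild-type replicate 1 above all other arrays and replicate 2 within the mutant range. Aimp1 passed as lower without wild-type replicate 2 (-0.33, adjusted p = 0.0429) and under median centring (-0.51, adjusted p = 0.0094), and stood at -0.11 without wild-type replicate 1 (adjusted p = 0.28). Aimp2 read 8.69, 8.63 and 8.86 against 8.85, 8.98, 8.80 and 8.88 (0.15, adjusted p = 0.136), and with wild-type replicate 3 left out it was 0.22 and passed (adjusted p = 0.0369), whereas median centring reversed it to -0.15 (adjusted p = 0.13).

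Split by catalytic class, 7 of 15 class I genes fell and 1 passed as higher, with a median of -0.14, and 4 of 14 class II genes fell and 1 passed as higher, with a median of 0.02, beside 19.8% lower and 17.1% higher over all genes. The bifunctional Eprs1 belongs to both classes and was left out of this split. The class II falls were Kars1, Sars2, Pars2 and Aars2. This difference between the classes was not tested either.

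The 12 cytoplasmic synthetase genes known from amino acid starvation studies in cultured cells as ATF4 targets had 11 tested members. Of these Lars1 fell, Mars1 (brighter feature) and Sars1 passed as higher and 8 did not pass, with a median of 0.11. Of 7 other cytoplasmic synthetase genes 4 fell (Qars1, Kars1, Vars1 and Rars1), 0 rose by limma and 3 did not pass, with a median of -0.18. In this second set, as among the mitochondrial genes, no rise had an unadjusted p under 0.05. Against 17.1% higher and 19.8% lower over all genes, 2 of 11 higher and 1 of 11 lower is not a result about the ATF4 targets. The splits by complex, catalytic class and ATF4 list share genes and are not separate observations. Qars1 and Rars1 are among the falls of the complex, of class I and of the genes outside the ATF4 list.

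Promoter sequences are shown for 6 members to set 2 known motifs beside these values: the C/EBP-ATF response element through which ATF4 acts (TGATGNAA) and the site of NRF1, a regulator of many nuclear genes for mitochondrial proteins (GCGCA and GCGC with any base between). Both were searched on both strands in the 250 bases before the RefSeq start (GRCm38.p6). A promoter was listed for 28 of the 37 members. Lars1, Vars1, Rars1 and Pars2, which fell, were not searched, nor were Cars1, Hars1, Nars1, Wars1 and Hars2. The C/EBP-ATF element stood in 3 of these 28, Aars1, Gars1 and Tars1, and in 3.53% of 27025 promoters of the genome. The NRF1 letters stood in 2 of 28, Kars1 and Tars1, and in 3.86% of all promoters. Lines below run 5′ to 3′ on the gene's strand with motif matches in capitals. Every match shown lies on the opposite strand, so the capitals are the reverse complement of the motif. Aars1, Gars1 and Tars1 are shown for the ATF element, Kars1 for the NRF1 letters next to its fall, and Qars1 and Iars2 because they fell and hold neither motif in this window. Ears2, Sars2, Lars2 and Aars2 also fell and hold neither motif, and are not shown.
Aars1: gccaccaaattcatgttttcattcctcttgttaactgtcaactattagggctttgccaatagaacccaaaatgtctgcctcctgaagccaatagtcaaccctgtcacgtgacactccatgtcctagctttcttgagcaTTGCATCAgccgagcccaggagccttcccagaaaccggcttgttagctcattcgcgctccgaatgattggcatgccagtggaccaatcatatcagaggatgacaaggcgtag
Gars1: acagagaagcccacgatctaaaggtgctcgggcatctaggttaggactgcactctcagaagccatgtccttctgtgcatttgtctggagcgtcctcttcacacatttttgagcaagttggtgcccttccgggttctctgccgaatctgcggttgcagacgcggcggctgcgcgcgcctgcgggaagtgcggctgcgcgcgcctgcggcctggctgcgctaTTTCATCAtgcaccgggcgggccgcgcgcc
Tars1: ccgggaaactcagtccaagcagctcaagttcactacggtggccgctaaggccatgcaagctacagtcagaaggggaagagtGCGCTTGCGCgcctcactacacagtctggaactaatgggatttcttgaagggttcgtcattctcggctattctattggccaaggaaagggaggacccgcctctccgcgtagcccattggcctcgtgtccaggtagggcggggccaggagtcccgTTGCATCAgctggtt
Kars1: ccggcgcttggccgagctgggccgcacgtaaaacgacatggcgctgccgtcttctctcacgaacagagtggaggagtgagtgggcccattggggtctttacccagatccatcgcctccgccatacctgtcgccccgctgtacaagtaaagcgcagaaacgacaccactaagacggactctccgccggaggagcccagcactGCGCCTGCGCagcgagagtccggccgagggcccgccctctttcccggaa
Qars1: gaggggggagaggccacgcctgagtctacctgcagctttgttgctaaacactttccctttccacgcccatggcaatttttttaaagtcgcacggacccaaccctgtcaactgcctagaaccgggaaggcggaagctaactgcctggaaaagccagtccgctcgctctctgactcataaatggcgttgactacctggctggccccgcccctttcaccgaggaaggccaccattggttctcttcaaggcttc
Iars2: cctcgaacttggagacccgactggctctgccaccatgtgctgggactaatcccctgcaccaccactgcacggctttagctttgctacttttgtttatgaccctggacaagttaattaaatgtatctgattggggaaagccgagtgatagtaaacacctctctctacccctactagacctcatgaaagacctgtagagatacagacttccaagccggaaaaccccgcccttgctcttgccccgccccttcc
The windows are chr8:111033592-111033841 on the + strand for Aars1, chr6:55037751-55038000 on the + strand for Gars1, chr15:11399659-11399908 on the - strand for Tars1, chr8:112011355-112011604 on the - strand for Kars1, chr9:108507755-108508004 on the + strand for Qars1 and chr1:185329402-185329651 on the - strand for Iars2. The ATF element began 112 bases before the start in Aars1, 30 in Gars1 and 15 in Tars1, and the NRF1 letters began 49 bases before the start in Kars1 and 169 in Tars1. The genes that hold the ATF element had differences of 0.11, 0.17 and -0.06, and none of these passed (adjusted p = 0.307, 0.0859 and 0.504). Neither motif matched in the windows of Mars1 and Sars1, the cytoplasmic genes with a feature that passed as higher. A match is a string of letters and not a measured binding site.

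Genes that work with the synthetases were read from a list of 23 symbols, of which 16 were tested, and 2 rose, 2 fell and 12 did not pass (median 0.07), beside 17.1% higher and 19.8% lower over all genes. Eef1e1, the scaffold protein AIMP3 of the multi-synthetase complex, read 8.50, 8.42 and 8.55 in wild type and 8.67, 8.85, 8.79 and 8.995 in the mutants (0.34, SE 0.08, adjusted p = 0.0116), without overlap, but with median centring it stood at 0.02 (adjusted p = 0.819). Gatb and Gatc are subunits of the amidotransferase that turns the glutamate placed by Ears2 on the mitochondrial glutamine tRNA into glutamine. Gatb fell from 6.85, 6.88 and 6.78 to 6.62, 6.63, 6.76 and 6.67 (-0.17, SE 0.06, adjusted p = 0.0492). Gatc was higher, at 9.79, 9.80, 9.87 and 9.76 against 9.56, 9.62 and 9.70 (0.18, SE 0.06, adjusted p = 0.0432), and reversed to -0.12 with median centring (adjusted p = 0.273). Its call was lost without each array other than wild-type replicate 3 (0.14 to 0.19, adjusted p between 0.0572 and 0.157). The Gatb call was lost without each array other than wild-type replicate 3 and mutant replicate 3 (-0.17 to -0.15, adjusted p between 0.0871 and 0.15). Qrsl1, the catalytic subunit, did not pass (0.14, adjusted p = 0.201). Tufm, the mitochondrial elongation factor that carries charged tRNAs to the ribosome, fell from 10.85, 10.88 and 10.72 to 10.71, 10.62, 10.52 and 10.59 (-0.21, SE 0.07, adjusted p = 0.0408). With 1 array omitted Tufm passed only without wild-type replicate 3 or mutant replicate 1, and the other 5 omissions gave -0.21 to -0.18 with adjusted p between 0.0733 and 0.136. Its cytoplasmic counterpart Eef1a1 did not pass (0.14, adjusted p = 0.0563).

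The amino acid response list held 24 tested genes of 30, with 5 higher, 4 lower and 15 that did not pass (median 0.03). With 17.1% higher and 19.8% lower over all genes, these counts are near the background and are not a result about the list. Atf4 itself read 9.50, 9.36 and 9.91 in wild type and 10.04, 9.95, 10.15 and 10.19 in the mutants (0.50, SE 0.12, adjusted p = 0.0136), and wild-type replicate 3 lay just under the mutants. The call failed on omission of wild-type replicate 1 (0.45, adjusted p = 0.0556), with median centring (0.21, adjusted p = 0.111) and against wild-type replicate 3 alone (0.18, adjusted p = 0.327). Asns, the asparagine synthetase of amino acid synthesis and a known ATF4 target, rose from 8.56, 8.51 and 8.59 to 9.04, 9.20, 9.30 and 9.15 (0.62, SE 0.07, adjusted p = 0.000301). The transcription factor Atf5 rose from 8.22, 8.02 and 8.08 to 9.21, 9.23, 9.01 and 8.99 (2-fold, SE 0.08 on the log2 scale, adjusted p = 8.91e-05). The serine synthesis enzyme Phgdh rose from 6.12, 6.14 and 6.52, near the detection limit, to 9.31, 9.11, 9.20 and 9.39 (3.00, SE 0.11, adjusted p = 4.87e-06). Ppp1r15a, which directs removal of the phosphate from eIF2alpha, fell by 0.53 (SE 0.08, adjusted p = 0.0014), and Ddit4, an inhibitor of mTORC1, fell by 0.35 (SE 0.06, adjusted p = 0.00178). The remaining genes of the list past the threshold were Aldh1l2, higher by 0.22 (adjusted p = 0.0341), and Slc6a9 and Mthfd2. Slc6a9 fell by 0.32 (adjusted p = 0.0386) and Mthfd2 by 0.29 (adjusted p = 0.0482). The stress genes Ddit3 (-0.12), Trib3 (-0.13) and Chac1 (0.14) did not pass.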

How the data were processed

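Total RNA of 7 embryos was labelled with the Illumina TotalPrep kit, per the labels' protocols. The deposited file of each array holds linear probe intensity whose distribution differs between arrays, so it was taken as unnormalized. Its upper quartile split by genotype, at 209 to 248 for controls but only 172 to 200 for mutants. Raw medians overlapped (66.8 to 72.1 against 64.3 to 69.8). Quantile normalization removes this gap at the upper quartile and median centring need not, so the choice between them is tied to genotype. The origin of the gap was not tested. The authors' deposited value table holds log2 values of the same arrays with a shared range (5.16 to 14.7) and ranks equal to those of the intensity, so it appears normalized between arrays, and the method was not stated in the sources used. It served as an alternative.

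The array's 25695 probe IDs reduce to 18116 features once identical intensity rows are merged. The synthetase genes had 57 probe IDs and 37 features, 34 of them tested. Background was corrected by normexp with an offset of 50, then log2 values were quantile-normalized. Features whose mean lay above the 40th percentile (6.10) were tested, 10869 in all, with limma 3.58.1 in R 4.3.3 (lmFit and eBayes, 2 groups, two-sided, Benjamini-Hochberg adjustment over all features, threshold 0.05). Each gene is represented by its feature with the highest mean, and Mars1 and Sars1 have 2 tested features each. The fit was tested on simulated data. Embryos are separate biological replicates. Same-numbered arrays of the groups did not deviate together (correlations -0.20, -0.16 and 0.06), so numbers were not used as pairs.

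The members, gene lists, motifs and alternatives were chosen with earlier results of these data known. Full values were given for up to 6 members past the threshold in each compartment and direction by size of difference, for both scaffold genes and for members with opposed features, and from the 2 lists of related genes for up to 6 members past the threshold by smallest p. Nars1, Gars1, Eprs1, Vars2, Qrsl1, Eef1a1, Aldh1l2, Slc6a9, Mthfd2, Ddit3, Trib3 and Chac1 were named after their values were seen. The array values of Yars1 also stand outside this rule. So do the median-centring values of Farsb, Wars1, Iars1, Aars1, Rars2 and Fars2. Alternatives were no background correction, an offset of 16, median centring, the authors' table, no filter, a filter at the 60th percentile, every probe ID as a feature, leaving out each array, the mutants against wild-type replicate 3 alone and the replicate number as a block. Promoters came from RefSeq (GRCm38.p6).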

Additional observations from a re-analysis of the deposited data

Results flagged for a closer look

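Within the 4 mutant arrays 1 of 44 features checked had a value far from the others. Yars1, the cytoplasmic tyrosine enzyme, read 6.03 in mutant replicate 2 against 6.14 to 6.16 in the other mutants, and chance alone flags about 1 in 20 groups. All of these values lie close to the detection limit of 6.10.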

How the results depend on the processing

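Calls of lower genes were kept within 1.5 times in number under every alternative except the mutants against wild-type replicate 3 alone, where 753 features of the array were higher and 1002 lower, 5 synthetase genes (3 cytoplasmic, 2 mitochondrial) passed as lower, 0 cytoplasmic genes passed as higher, and the medians were -0.0576 (cytoplasmic, reversed) and -0.0936 (mitochondrial). The lone wild-type array is then assumed to vary like the mutants. Calls of higher genes rested on Mars1 and Sars1 and were 0 with an offset of 16 and with median centring. Median centring set the arrays to a common median over all 18116 features, of which 10869 were tested. It moved the median difference of the tested features to -0.14 and their split from 1840 higher and 2155 lower to 758 and 3875. It gave 15 lower synthetase genes, with Farsb, Wars1, Rars2 and Aimp1 beyond those of the main fit. The medians there were -0.17 (cytoplasmic, reversed) and -0.27 (mitochondrial), or -0.04 and -0.13 relative to the median of all genes tested. Median centring reversed Sars1 (-0.13), Mars1 (-0.10), Aimp2 (-0.15) and Gatc (-0.12). Also reversed were Nars1 (-0.14), Gars1 (-0.04), Aars1 (-0.18), Iars1 (-0.21), Wars1 (-0.20, passing as lower) and Fars2 (-0.19). The mitochondrial median was -0.18 with an offset of 16, -0.0365 without a filter, which adds Hars2 and Yars2, and -0.23 with the 60th percentile filter. With the replicate block, which gives mutant replicate 4 no weight because it has no wild-type partner, 1 synthetase gene was higher (Vars2, 0.60, adjusted p = 0.0367), so 0 cytoplasmic and 1 mitochondrial, and 8 were lower. Leaving out 1 array at a time gave 0 to 2 synthetase genes higher and 8 to 10 lower. Over all genes these fits gave 12% to 18.7% higher and 15.1% to 21.1% lower. By compartment they gave 0 to 1 cytoplasmic higher, 4 to 5 cytoplasmic lower, 0 to 1 mitochondrial higher and 4 to 5 mitochondrial lower. The medians were 0.0071 to 0.06 (cytoplasmic) and -0.15 to -0.12 (mitochondrial). Omissions refitted values normalized with all arrays. The authors' table, no background correction and every probe ID as a feature changed none of the counts of synthetase genes. Cars1, Hars2 and Yars2, below the detection limit, give no usable difference.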
